A study of Mus musculus with 12 samples.

Results

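The release of neurotransmitter from synaptic vesicles was examined at the level of mRNA through 41 genes, chosen by name, of the 50563 genes in the count table. They encode 3 synapsins, 7 vesicle membrane proteins, 6 SNAREs and complexins, 12 synaptotagmins, 8 proteins of the Rab3 family and its partners, 3 active zone proteins and 2 vesicular glutamate transporters. They were picked by symbol, with earlier results of these data known. RNA-Seq libraries were made from the brain cortex of 12 E4FAD mice, 1 library per mouse. All mice, controls included, carried the genotype APOE4+/+, 5FAD-/+. Such mice have the human APOE4 gene in place of mouse Apoe and transgenes that make them deposit amyloid. The CTRL group held 7 mice that were given vehicle with antioxidants by oral gavage, 2 of them 12 months and 5 of them 14 months old. The DPAn-6 group held 5 mice that were given the n-6 docosapentaenoic acid daily by the same route for some weeks, 2 of them 12 months and 3 of them 14 months old. Females and males were in both groups, but a sex for each mouse was not in the labels. There was no group without amyloid or without APOE4, so the genes were compared between treatments only.

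A synaptic vesicle stores transmitter, is held in a reserve by synapsins and is carried to the active zone with the help of the small GTPase Rab3. There, priming proteins such as Munc13 bring the vesicle SNARE synaptobrevin together with the plasma membrane SNAREs syntaxin and SNAP-25. Calcium entering the terminal binds synaptotagmin, and the SNARE complex, which complexin holds ready, then drives fusion. In cortex most of these mRNAs belong to neurons, and the loss of presynaptic proteins is a well known feature of Alzheimer's disease tissue.

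The promoters of the genes were read first, since they show what the genes share beyond their function. RefSeq windows of the 250 bases before each transcription start (GRCm38.p6) were at hand for 28 of the 41 genes, 41 windows in all. No window was at hand for Syngr3, Rims2, Doc2a, Syt13, Snap25, Syt17, Syt4, Syt7, Syt5, Syt12, Vamp2, Doc2b and Syn3. The GC box, GGGCGG on either strand, was in 63.4% of these windows and in 32.7% of all 32851 windows. The TATA box, TATAAA on either strand, was in 7.32% against 12.4%, which were windows of Rab3b and Sv2b. The cyclic AMP response element, TGACGTCA, which reads alike on both strands, was in 2.44% against 1.55%. The left arm of the element bound by REST, a repressor of neuronal genes in other tissues, was searched as TTCAGCACC on either strand and was in 2.44% against 0.301%. Both of the last were in the window of Syn1. GC boxes can overlap, as a pair did in the Rab3b window. These matches are a description of the letters.

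Parts of 4 windows are shown. Syn1 was chosen for its REST arm and cyclic AMP response element, and Rab3b for its match to the letters of the TATA box. Syt6 and Syt10 had the largest positive and the largest negative difference between the groups. Each is written 5′ to 3′ on the strand of its gene, ends before the first exon of the gene in the GENCODE annotation, and has the named motifs in capitals. Syn1 is on the minus strand at chrX:20921005-20921168. Rab3b is on the plus strand at chr4:108878820-108879062. Syt6 is on the plus strand at chr3:103574995-103575230. Syt10 is on the minus strand at chr15:89841861-89842110.
Syn1: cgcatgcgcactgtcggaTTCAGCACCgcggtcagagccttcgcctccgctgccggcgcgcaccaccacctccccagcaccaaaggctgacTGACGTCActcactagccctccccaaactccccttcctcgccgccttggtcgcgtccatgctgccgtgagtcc
Rab3b: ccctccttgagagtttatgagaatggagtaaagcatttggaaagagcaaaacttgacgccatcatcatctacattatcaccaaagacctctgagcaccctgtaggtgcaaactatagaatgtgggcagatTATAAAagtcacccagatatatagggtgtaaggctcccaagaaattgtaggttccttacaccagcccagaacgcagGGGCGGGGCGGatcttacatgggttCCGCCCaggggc
Syt6: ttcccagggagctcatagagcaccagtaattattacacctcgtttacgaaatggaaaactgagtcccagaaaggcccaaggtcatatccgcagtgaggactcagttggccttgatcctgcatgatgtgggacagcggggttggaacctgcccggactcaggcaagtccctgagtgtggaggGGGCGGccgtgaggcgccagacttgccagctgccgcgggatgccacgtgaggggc
Syt10: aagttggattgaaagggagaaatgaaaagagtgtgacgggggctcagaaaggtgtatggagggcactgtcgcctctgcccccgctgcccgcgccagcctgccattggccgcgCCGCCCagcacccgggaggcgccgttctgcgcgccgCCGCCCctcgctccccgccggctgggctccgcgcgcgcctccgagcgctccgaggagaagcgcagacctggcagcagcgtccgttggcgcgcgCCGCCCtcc
In the Syn1 sequence the capitals mark the REST arm, bases 232 to 224 before the RefSeq start, and the cyclic AMP response element, bases 159 to 152. In the Rab3b sequence they mark the letters TATAAA, bases 120 to 115 before the RefSeq start, and 3 GC boxes, a pair of which share a base. The Syt6 sequence holds 1 GC box, at bases 69 to 64, and the Syt10 sequence holds 3, all with the letters of the other strand.

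Library totals ranged from 15339098 to 19500154 counts in CTRL and from 15208803 to 26520251 in DPAn-6, and the 41 genes had between 61 and 57262 counts in a mouse. All 10 excitatory and all 11 inhibitory neuron markers passed the filter on low counts, and so did all 10 markers each of striatum and thalamus, so this filter does not tell cortex from the regions beside it. The libraries differed in markers of other tissue. The mean of 10 striatum markers, such as Drd1 and Adora2a, lay between 3.97 and 5.69 log2 CPM (counts scaled to the library total) in CTRL and between 4.05 and 5.36 in DPAn-6, and 0 of the 10 passed the test. All 10 were higher in DPAn-6 (median log2 fold change 0.34), 1 of them at an unadjusted p below 0.05 (background 5.51%). Choroid plexus markers summed to between 274.2 and 2547 CPM in CTRL and between 301.5 and 316.2 CPM in DPAn-6, and 0 of the 7 tested passed. All 7 were lower in DPAn-6 (median log2 fold change -2.41), 6 of them at an unadjusted p below 0.05 (background 9.02%). Ttr, the main choroid plexus mRNA, averaged 6.22 log2 CPM in CTRL and 2.19 in DPAn-6 (log2 fold change -6.01; edgeR, adjusted p = 0.0553). CTRL replicates 2, 5 and 3 were at 10.58, 9.88 and 7.38 log2 CPM for Ttr. The other CTRL mice lay between 2.59 and 4.59, and the DPAn-6 mice between 0.87 and 3.88. Enpp2, which is in the sum, averaged 8.62 and 8.19 log2 CPM. Microglia markers summed to between 1271 and 1883 CPM in CTRL and between 873.8 and 1257 CPM in DPAn-6. All 10 were lower in DPAn-6 (median log2 fold change -0.48), and 4 of them passed the test (background 1.14% for lower). At an unadjusted p below 0.05 there were 9 of 10 lower (background 9.02%). The part of these tissues and cells in the results below was not tested except where a fit is given. CTRL replicate 3 stood apart from the other CTRL mice, by a gap test at the 5% level, in 20.5% of all genes, whereas any other CTRL mouse did so in 2.14%. Its deviations from the median mouse correlated with the GC content of the genes at r = -0.57 across 15660 genes, against -0.29 to 0.36 in the other mice. Leaving it out moved the log2 fold change of 19 of the 41 genes by over 1.5 times, 6 of which changed sign, and the values of these genes are given with and without it.

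The most abundant of these mRNAs per length were those of the fusion machine and of glutamate storage. On the scale of CPM per kb of exonic length, Vamp2 (synaptobrevin, the vesicle SNARE) stood at 371.0 ± 93.6 in CTRL (SD, n = 7). Cplx1, a complexin, stood at 341.7 ± 16.7, Snap25 at 326.3 ± 99.4 and Slc17a7, which loads glutamate into vesicles, at 325.2 ± 48.5. These 4 levels differed by less than the spread between mice. Cplx2 at 310.3 ± 22.5, Syn1 at 278.2 ± 69.3, Syp (synaptophysin) at 256.0 ± 10.1, Rab3a at 238.3 ± 10.8 and Syt1 at 231.5 ± 34.7 followed. CTRL replicate 3, which is in these means, was the highest CTRL mouse for Vamp2, Snap25, Syn1 and Syt1 and the lowest for Slc17a7. The levels per length were not computed without it.

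**Figure D1:**
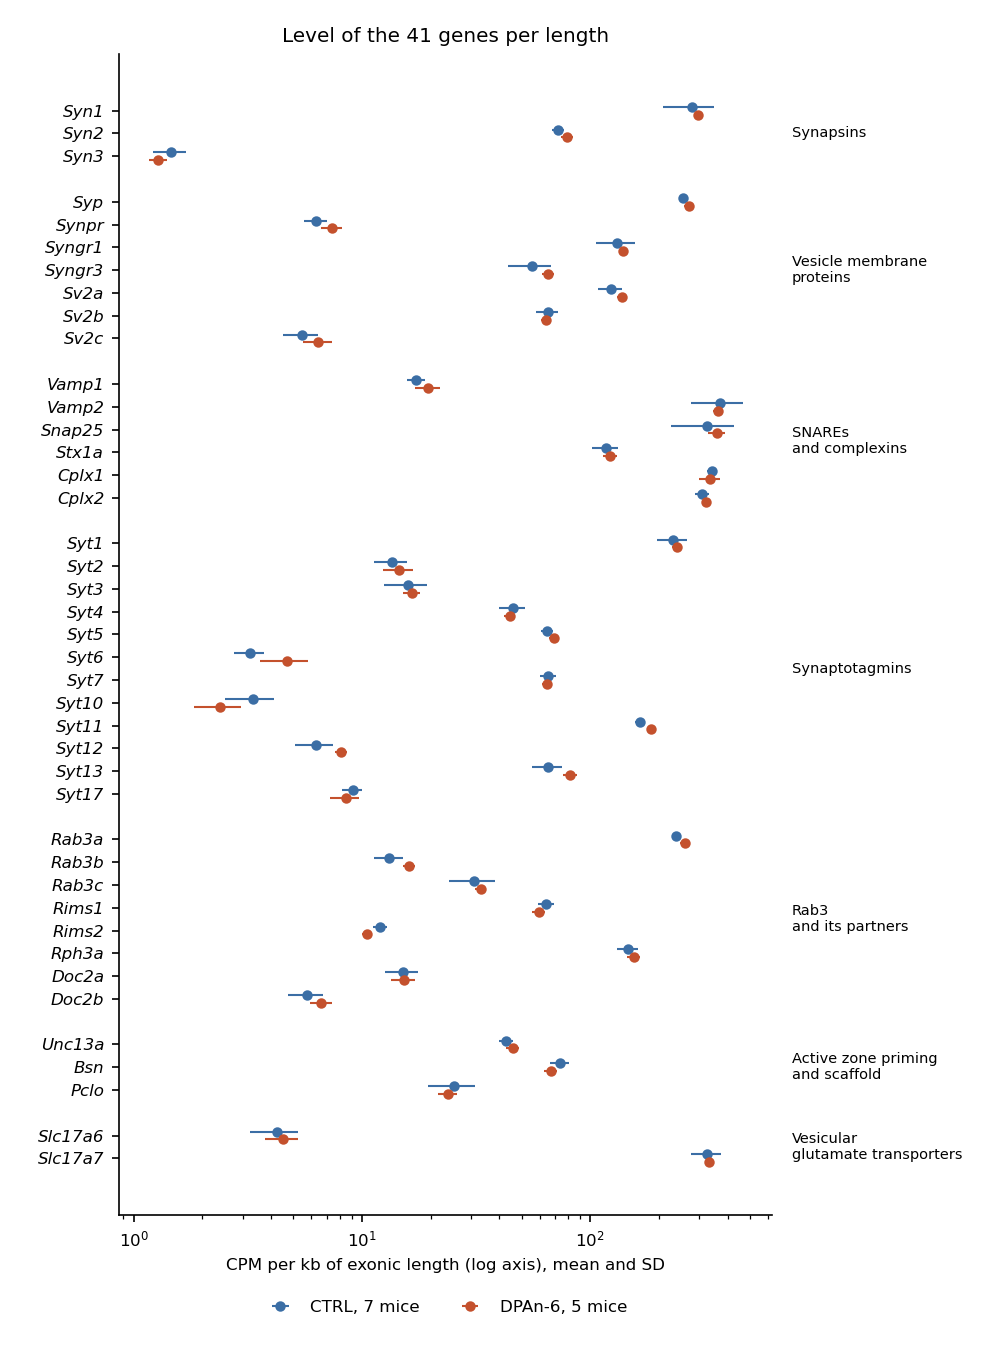
Level of each gene per length, in CPM per kb of exonic length on a log axis, as the mean (point) and SD (line) over the 7 CTRL mice (blue) and the 5 DPAn-6 mice (red), grouped by role. The levels span from 1.46 for Syn3 to 371.0 for Vamp2 in CTRL, and the points of the 2 groups lie close together beside that span.

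Within each family 1 or a few members carried most of the mRNA. Among the synapsins, Syn3 stood at 1.46 ± 0.243 CPM per kb in CTRL, far under Syn1 and under Syn2 at 72.4 ± 4.39. Among the synaptotagmins, Syt1 was followed by Syt11 at 164.5 ± 7.79, Syt7 at 65.5 ± 5.49, Syt13 at 65.3 ± 9.87 and Syt5 at 64.7 ± 3.74, while Syt6 and Syt10 were the lowest at 3.23 ± 0.485 and 3.32 ± 0.816. Slc17a6, the glutamate transporter of thalamic and other subcortical neurons, stood at 4.23 ± 1.01. The log2 ratio per length of Slc17a7 to Slc17a6 lay between 5.37 and 6.85 in CTRL and between 5.92 and 6.50 in DPAn-6. That of Syt1 to Syt2, the fast sensor of many inhibitory terminals, lay between 3.86 and 4.97 in CTRL and between 3.77 and 4.21 in DPAn-6. The ratios of Sv2a to Sv2c lay between 3.90 and 4.89 and between 4.29 and 4.84, and those of Rab3a to Rab3b between 3.99 and 4.46 and between 3.95 and 4.08. The first gene of each of these 4 pairs exceeded its paralog in every mouse, as was the case for Vamp2 over Vamp1, whose ratio lay between 3.94 and 5.39 over both groups. Cplx2 and Cplx1 were near each other, at log2 ratios between -0.31 and 0.08 over both groups. The ranges of the 2 groups overlapped for all 6 pairs, and the ratios were not tested.

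The question for the 41 genes was whether DPAn-6 altered their mRNA in cortex. All 41 passed the filter on low counts, and 0 of 41 passed the test (edgeR quasi-likelihood, adjusted p below 0.05 over 15688 genes), where 1.55% of all genes tested did so. The lowest adjusted p, that of Syt6, was 0.098. At an unadjusted p below 0.05 there were 9 of 41 (22.0%), against 14.5% of all genes. Higher in DPAn-6 were 6 of these, namely Syt6, Syt13, Syt11, Syt12, Rab3b and Synpr (background 5.51%), while 3 were lower, namely Rims2, Syt10 and Bsn (background 9.02%). limma-voom, the tool of the study, also called 0 of 41 (background 1.43%) and gave 9 of 41 at an unadjusted p below 0.05 (background 14.5%). DESeq2 called 3 of 41, Syt11, Syt6 and Rims2 (background 4.44%). limma-voom with a weight for each mouse called 9 of 41, Bsn and Rims2 as lower and Rab3b, Snap25, Syn1, Syt11, Syt12, Syt13 and Syt6 as higher (background 8.08%). With a trend on gene length and GC content removed from each library, edgeR called Syt12, Syt13 and Syt6, 3 of 41 (background 3.45%), and 16 of 41 had an unadjusted p below 0.05 (background 19.9%). With Ttr as a covariate, Rims2 and Syt6 alone had an unadjusted p below 0.05 (2 of 41, background 6.39%). Ttr itself was lower in DPAn-6, at a mean of 2.19 log2 CPM against 6.22 in CTRL. This covariate thus overlaps with the treatment, and the fit cannot fully separate them. The standard errors of Syt6 and Syt13 were 0.20 and 0.13 in this fit, in place of 0.15 and 0.10. In bulk tissue, fewer cells of a type and less RNA per cell cannot be told apart.

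The differences were small. The log2 fold changes, DPAn-6 minus CTRL, ran from -0.49 for Syt10 to 0.51 for Syt6, and 36 of 41 were under 0.25 in size. Their median was 0.06, against -0.0047 over all genes tested, with 28 genes higher and 13 lower. The median standard error was 0.10 (log2). The groups did not overlap in 2 of 41 genes, Syt11 and Syt13, both higher in DPAn-6 (background 1.73% for higher, 3.22% for either direction).

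**Figure D2:**
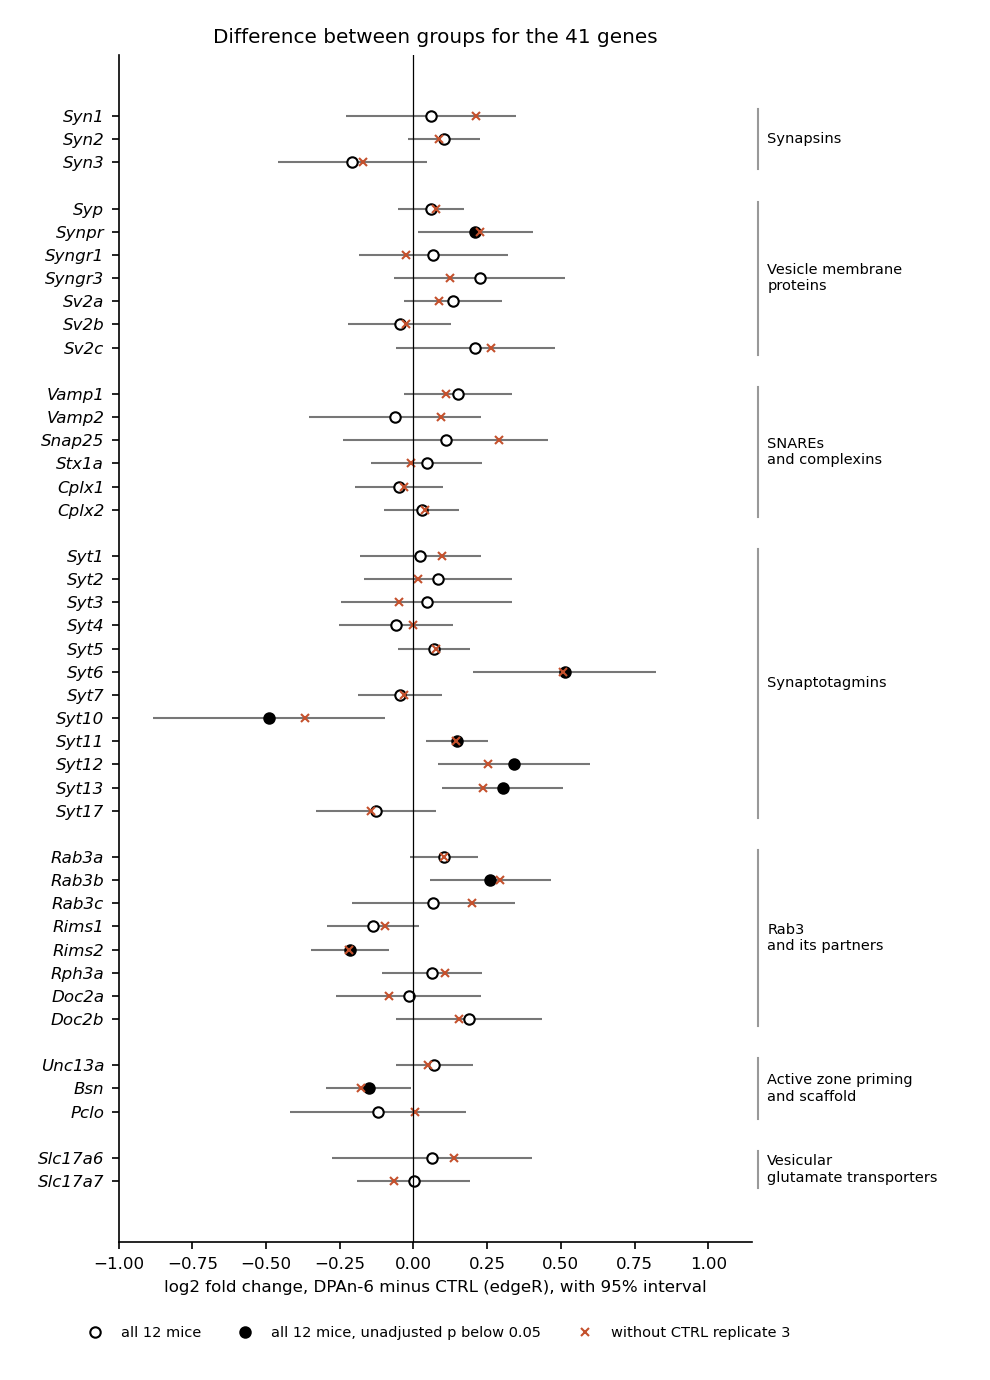
Difference between the groups for each gene, as the edgeR log2 fold change (DPAn-6 minus CTRL) with its 95% interval, by role; filled points have an unadjusted p below 0.05 and red crosses give the value without CTRL replicate 3. The filled points run from -0.49 to 0.51, most intervals cross 0, and the crosses for Snap25 (0.29) and Syn1 (0.21) lie to the right of their points (0.11 and 0.06).

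Synapsins coat the vesicle and tie it to others and to actin. Syn1 (ENSMUSG00000037217, chrX:20860511-20921004, GRCm38 as are all gene positions here) measured 9.57, 9.74 and 10.48 log2 CPM as the lowest, median and highest of the 7 CTRL mice, and 9.99, 9.89, 9.91, 9.92 and 9.95 in DPAn-6 replicates 1 to 5. The highest CTRL value was that of replicate 3, and the other 6 CTRL mice were all under the lowest DPAn-6 mouse. With all mice the log2 fold change was 0.06 ± 0.14 (SE; edgeR, adjusted p = 0.890; 95% interval -0.23 to 0.35), and without CTRL replicate 3 it was 0.21 ± 0.05 (edgeR, adjusted p = 0.0159). Reads of Syn1 could include some of Araf, which lies on the opposite strand, since the strand setting of the counting is not stated. Syn2 and Syn3 had log2 fold changes of 0.10 and -0.21 (adjusted p = 0.439 and 0.454), and Syn3 overlaps Timp3 on the opposite strand, which has more counts than Syn3.

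Of the vesicle membrane proteins, 6 of 7 were higher in DPAn-6 and 0 passed the test. Syp (ENSMUSG00000031144, chrX:7638471-7653256), the most used marker of synaptic vesicles, measured 10.30, 10.36 and 10.46 in CTRL (lowest, median, highest) and 10.55, 10.36, 10.45, 10.47 and 10.49 log2 CPM in the DPAn-6 mice. Here 3 DPAn-6 mice were above every CTRL mouse and the other 2 lay within the CTRL range. On the log2 scale the difference was 0.06 ± 0.05 (edgeR, adjusted p = 0.680; exact permutation p = 0.0467, two-sided). The edgeR 95% interval, -0.05 to 0.17, holds no change as large as 0.25.

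Synpr (ENSMUSG00000056296, chr14:13284780-13616340), synaptoporin, a relative of synaptophysin enriched in the mossy fibers of the hippocampus and in some interneurons, measured 5.65, 5.94 and 6.09 log2 CPM in CTRL and 6.03, 6.01, 6.004, 6.30 and 6.27 in DPAn-6. Only DPAn-6 replicates 4 and 5 were above every CTRL mouse. DPAn-6 minus CTRL came to a log2 fold change of 0.21 ± 0.09 (edgeR, p = 0.0372, adjusted p = 0.306; exact permutation p = 0.0417, two-sided over 792 splits). With Ttr as a covariate it was 0.10 ± 0.12 (edgeR, adjusted p = 1.00).

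The other 5 proteins of this group had log2 fold changes between -0.05 (Sv2b) and 0.22 (Syngr3). Syngr1 and Syngr3, the synaptogyrins, were lowest in CTRL replicate 3, at 8.53 and 5.95 log2 CPM, while the other CTRL mice lay between 9.31 and 9.50 and between 6.82 and 7.06. Without that mouse their log2 fold changes were -0.02 and 0.12 in place of 0.07 and 0.22. Sv2a, the binding site of the drug levetiracetam, was at 0.13 (adjusted p = 0.463), and at 0.09 without that mouse. Sv2b was at -0.03 without it. The remaining gene, Sv2c, the form of the basal ganglia, was at 0.21 (adjusted p = 0.486).

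The SNAREs and complexins, which carry out and gate fusion, ran from -0.06 (Vamp2) to 0.15 (Vamp1), and 0 of 6 passed the test. Snap25 (ENSMUSG00000027273, chr2:136713453-136782428) measured 10.75, 10.97 and 11.85 log2 CPM in CTRL and 11.21, 11.21, 11.33, 11.40 and 11.08 in DPAn-6. CTRL replicate 3 held the highest value, and the next CTRL mouse was at 11.12, so that 4 of the 5 DPAn-6 mice were above the other 6 CTRL mice. With all mice the difference was 0.11 ± 0.16 (log2; edgeR, adjusted p = 0.829; 95% interval -0.24 to 0.46), and it was 0.29 ± 0.07 (edgeR, adjusted p = 0.0238) without that CTRL mouse.

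Vamp2 (ENSMUSG00000020894, chr11:69088490-69092384) measured 10.23, 10.35 and 11.11 log2 CPM in CTRL and 10.52, 10.36, 10.45, 10.44 and 10.39 in DPAn-6. The DPAn-6 values lay inside the CTRL range, whose top was again CTRL replicate 3. The log2 fold change was -0.06 ± 0.14 (edgeR, adjusted p = 0.889; 95% interval -0.35 to 0.23) and turned to 0.09 ± 0.05 (edgeR, adjusted p = 0.245) without that mouse. Stx1a, syntaxin-1A, was lowest in the same mouse at 7.86 log2 CPM, against 8.20 to 8.43 in the other CTRL mice, and its log2 fold change was 0.04 with it and -0.01 without it. Cplx1 and Cplx2 were at -0.05 and 0.03, and Cplx1 at -0.03 without that mouse.

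The synaptotagmins, vesicle proteins with a pair of C2 domains, held the largest differences in both directions. In DPAn-6, 8 of the 12 were higher and 4 lower, with 5 at an unadjusted p below 0.05. Syt1 (ENSMUSG00000035864, chr10:108497650-109010982), the main calcium sensor of fast release in cortex, measured 10.55, 10.88 and 11.24 log2 CPM in CTRL and 10.94, 10.93, 11.02, 11.03 and 10.88 in DPAn-6. The DPAn-6 mice fell inside the CTRL range. Its log2 fold change was 0.02 ± 0.10 (edgeR, adjusted p = 0.948), with a 95% interval from -0.18 to 0.23, and 0.10 ± 0.07 without CTRL replicate 3 (edgeR, adjusted p = 0.418). Syt7, the sensor of slow and asynchronous release, was at -0.05 (95% interval -0.19 to 0.10) and Syt2, which overlaps Ppp1r12b on the opposite strand, at 0.08 (-0.17 to 0.34). Syt2 was lowest in CTRL replicate 3, at 6.15 log2 CPM against 6.51 to 6.89 in the other CTRL mice, and its log2 fold change without that mouse was 0.02.

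Syt6 (ENSMUSG00000027849, chr3:103575231-103645569), a synaptotagmin whose role in cortex is little known, measured 3.96, 4.16 and 4.61 log2 CPM in CTRL and 4.13, 4.86, 4.62, 5.04 and 5.02 in DPAn-6. DPAn-6 replicates 2 to 5 were above every CTRL mouse, whereas DPAn-6 replicate 1 was under the CTRL median. edgeR gave a log2 fold change of 0.51 ± 0.15 (edgeR, p = 0.00308, adjusted p = 0.098; exact permutation p = 0.0215, two-sided). Leaving out DPAn-6 replicate 1 raised it to 0.64 ± 0.12 (edgeR, adjusted p = 0.0252), and Syt6 was then the 1 gene of the 41 called (background 0.656%).

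In each group, 1 mouse stood at the same end for the striatum markers and for Syt6. DPAn-6 replicate 1 was lowest of its group for the mean of the 10 markers, at 4.05 log2 CPM against 5.28 to 5.36 in the other 4, and CTRL replicate 1, the highest CTRL mouse for Syt6 at 4.61, was the highest for the markers at 5.69. Sv2c showed the same 2 mice at the ends of their groups, with CTRL replicate 1 at 6.08 and DPAn-6 replicate 1 at 5.56 against 5.98 to 6.16 in the other DPAn-6 mice. The remaining CTRL mice did not keep 1 order. CTRL replicates 6 and 7 were next highest for the markers (5.11 and 4.96) and measured 4.09 and 4.16 for Syt6. CTRL replicate 5 was the lowest for the markers (3.97) and measured 4.29 for Syt6. With the marker mean as a covariate, a fit added after the data were seen, the log2 fold change of Syt6 was 0.38 ± 0.13 (edgeR, adjusted p = 0.243), and 0 of 41 genes were called (background 0.956%). Whether striatal tissue took part in the difference beyond this fit was not tested.

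**Figure D3:**
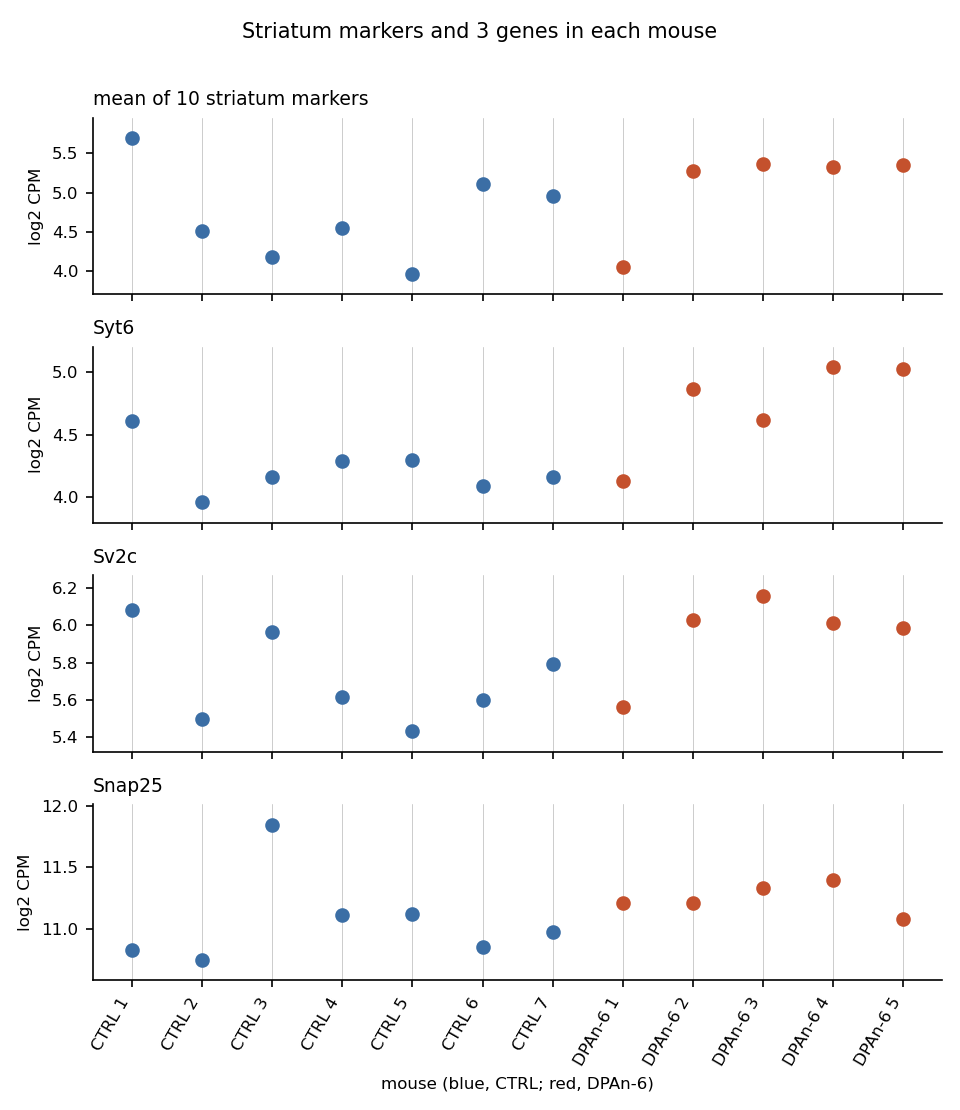
Mean of the 10 striatum markers, and Syt6, Sv2c and Snap25, in log2 CPM for each mouse (blue, CTRL; red, DPAn-6). DPAn-6 replicate 1 is the lowest of its group for the marker mean (4.05), Syt6 (4.13) and Sv2c (5.56), and CTRL replicate 3 is the highest of all mice for Snap25 (11.85).

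Syt11 (ENSMUSG00000068923, chr3:88744700-88775164) does not bind calcium at its first C2 domain and is known from work on vesicle retrieval. It measured 9.63, 9.76 and 9.83 log2 CPM in CTRL and 9.97, 9.86, 9.88, 9.90 and 9.95 in DPAn-6. Every DPAn-6 mouse was above every CTRL mouse, with a log2 fold change of 0.15 ± 0.05 (edgeR, adjusted p = 0.167), or 0.09 ± 0.06 with Ttr as a covariate (edgeR, adjusted p = 1.00). The exact permutation test gave the smallest p that 792 splits allow, 0.00126 (two-sided).

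Syt13 (ENSMUSG00000027220, chr2:92915098-92956058), which lacks the calcium-binding residues, was the other gene whose groups did not overlap. CTRL mice measured 7.41, 7.96 and 8.12 log2 CPM and DPAn-6 mice 8.40, 8.18, 8.32, 8.17 and 8.22. The lowest CTRL mouse was replicate 3, and the next was at 7.89. The log2 fold change was 0.30 ± 0.10 (edgeR, p = 0.00672, adjusted p = 0.142; exact permutation p = 0.00505). Without CTRL replicate 3 it was smaller, 0.24 ± 0.06, and passed the test (edgeR, adjusted p = 0.0265).

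Syt12 (ENSMUSG00000049303, chr19:4445908-4477447), a vesicle protein without calcium binding, measured 4.39, 5.18 and 5.41 log2 CPM in CTRL and 5.53, 5.43, 5.58, 5.36 and 5.51 in DPAn-6. All DPAn-6 mice but replicate 4 were above every CTRL mouse, and CTRL replicate 3 was again the lowest. DPAn-6 minus CTRL came to a log2 fold change of 0.34 ± 0.12 (edgeR, p = 0.0131, adjusted p = 0.190; exact permutation p = 0.00758), 0.25 ± 0.06 without CTRL replicate 3 (edgeR, adjusted p = 0.0288), and 0.22 ± 0.16 with Ttr as a covariate (edgeR, adjusted p = 1.00).

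Syt10 (ENSMUSG00000063260, chr15:89782393-89841860), a calcium sensor of peptide secretion in the olfactory bulb, was the scarcest of the 41 genes by counts, with 61 to 165 in a mouse. It measured 2.14, 2.61 and 3.15 log2 CPM in CTRL and 1.92, 2.02, 1.999, 2.02 and 2.64 in DPAn-6. DPAn-6 replicates 1 to 4 were under every CTRL mouse and replicate 5 stood apart at 2.64, just above the CTRL median. The edgeR difference was a log2 fold change of -0.49 ± 0.18 (edgeR, p = 0.0183, adjusted p = 0.225; exact permutation p = 0.0303), and it was -0.65 without DPAn-6 replicate 5. The other synaptotagmins, Syt3, Syt4, Syt5 and Syt17, lay between -0.13 and 0.07. Without CTRL replicate 3, Syt3 turned from 0.04 to -0.05 and Syt4 went from -0.06 to -0.0033.

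**Figure D4:**
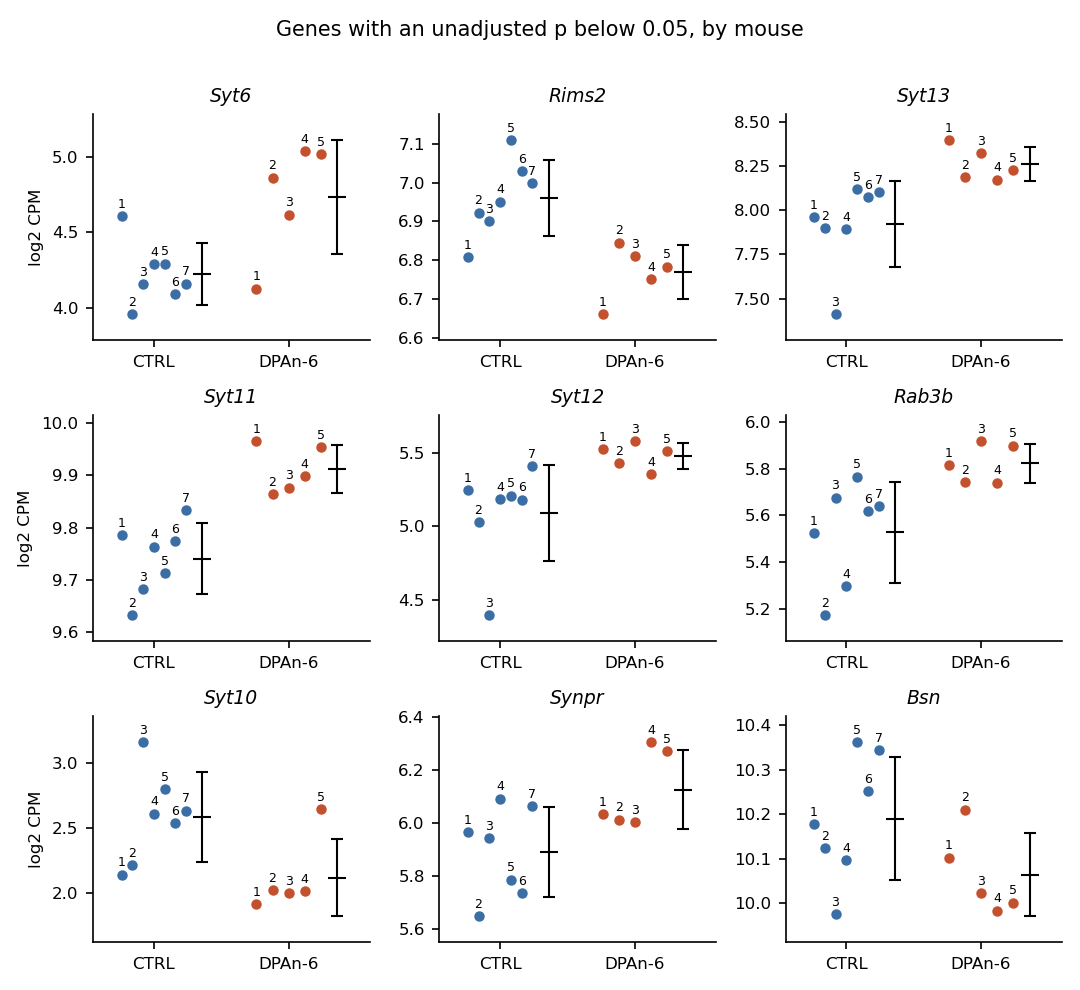
Level in log2 CPM of the 9 genes with an unadjusted p below 0.05, 1 point for each mouse with its replicate number (blue, CTRL; red, DPAn-6), and the group mean with SD in black. The groups do not overlap for Syt11 and Syt13, CTRL replicate 3 is the lowest point for Syt12 (4.39) and Syt13 (7.41), and DPAn-6 replicate 1 is the lowest of its group for Syt6 (4.13).

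Rab3 binds the vesicle and, in its active form, RIM at the active zone. Rab3a, the major form in brain, had a log2 fold change of 0.10 (adjusted p = 0.411) and Rab3c of 0.07 ± 0.13 (edgeR, adjusted p = 0.869). Rab3c was highest in CTRL replicate 3, at 9.11 log2 CPM against 8.21 to 8.63 in the other CTRL mice, and its log2 fold change without that mouse was 0.20 ± 0.07 (edgeR, adjusted p = 0.0806). Rab3b (ENSMUSG00000003411, chr4:108879063-108943324), a form found at some inhibitory terminals and in endocrine cells, measured 5.17, 5.62 and 5.77 log2 CPM in CTRL and 5.82, 5.74, 5.92, 5.74 and 5.90 in DPAn-6. Of the DPAn-6 mice 3 were above every CTRL mouse and the other 2 were near the top of the CTRL range. The log2 fold change was 0.26 ± 0.10 (edgeR, p = 0.0164, adjusted p = 0.212; exact permutation p = 0.0139).

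Rims2 (ENSMUSG00000037386, chr15:39198261-39684372), which encodes RIM2, a partner of Rab3 that gathers calcium channels at the active zone, was the lower gene with the smallest p. It measured 6.81, 6.95 and 7.11 log2 CPM in CTRL and 6.66, 6.84, 6.81, 6.75 and 6.78 in DPAn-6. All 5 DPAn-6 mice were under the CTRL mean, and 3 were under every CTRL mouse. edgeR gave a log2 fold change of -0.21 ± 0.06 (edgeR, p = 0.00366, adjusted p = 0.105; exact permutation p = 0.00758). Without CTRL replicate 3 it was -0.22 ± 0.06 (edgeR, adjusted p = 0.0317), and after the trend on length and GC was removed -0.12 ± 0.05 (edgeR, adjusted p = 0.208). Rims1 was at -0.14 (adjusted p = 0.418), and Rph3a, Doc2a and Doc2b, which encode calcium-binding proteins that meet Rab3 or Munc13, were at 0.06, -0.02 and 0.19. Without CTRL replicate 3, Rph3a was at 0.11 and Doc2a at -0.08. Doc2a overlaps Ino80e on the opposite strand.

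Of the active zone proteins, Bsn (ENSMUSG00000032589, chr9:108096022-108190384), the giant scaffold bassoon, measured 9.976, 10.18 and 10.36 log2 CPM in CTRL and 10.10, 10.21, 10.02, 9.983 and 10.002 in DPAn-6. The groups overlapped widely, with DPAn-6 replicate 2 above the CTRL median and CTRL replicate 3 under every DPAn-6 mouse. On the log2 scale the difference was -0.15 ± 0.07 (edgeR, p = 0.0408, adjusted p = 0.315), and the exact permutation p was 0.112. With the length and GC trend removed it was -0.05 ± 0.06 (edgeR, adjusted p = 0.720), and in the 14-month mice alone -0.08 ± 0.10 (edgeR, adjusted p = 0.824). Pclo, the related scaffold piccolo, was at -0.12 with all mice and 0.01 without CTRL replicate 3, and Unc13a, which encodes the priming factor Munc13-1, was at 0.07 (95% interval -0.06 to 0.20). Unc13a overlaps Colgalt1 on the opposite strand.

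Neither glutamate transporter passed the test. Slc17a7 (ENSMUSG00000070570, chr7:45163949-45176142), VGLUT1, measured 10.25, 10.84 and 10.99 log2 CPM in CTRL, counting the lowest, that of replicate 3, and 10.85, 10.73, 10.84, 10.75 and 10.81 in DPAn-6. All DPAn-6 mice lay within the CTRL range. The log2 fold change was 0.00 ± 0.09 (edgeR, adjusted p = 1.00; 95% interval -0.19 to 0.19) and without that mouse -0.07 ± 0.05 (edgeR, adjusted p = 0.429). Slc17a6 was at 0.06 (95% interval -0.28 to 0.40), and at 0.14 without CTRL replicate 3.

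CTRL replicate 3 stood apart from the other CTRL mice in 11 of 41 genes (26.8%), near its share of all genes, and no other CTRL mouse did so in any of them. It was the highest in Syn1, Vamp2 and Snap25 and the lowest in Syngr1, Syngr3, Vamp1, Stx1a, Syt3, Syt12, Syt13 and Slc17a7. Across the 41 genes its deviation correlated with GC content at r = -0.60, a description over genes that share the library. Without this mouse 6 of 41 genes passed the test (edgeR, adjusted p below 0.05), where 6.1% of all genes did. Syn1, Snap25, Syt6, Syt12 and Syt13 were then higher (background 2.12%) and Rims2 lower (background 3.98%). At an unadjusted p below 0.05 there were then 15 of 41, against 23.1% of all genes. No record in the labels sets this mouse apart, and the cause was not tested.

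**Figure D5:**
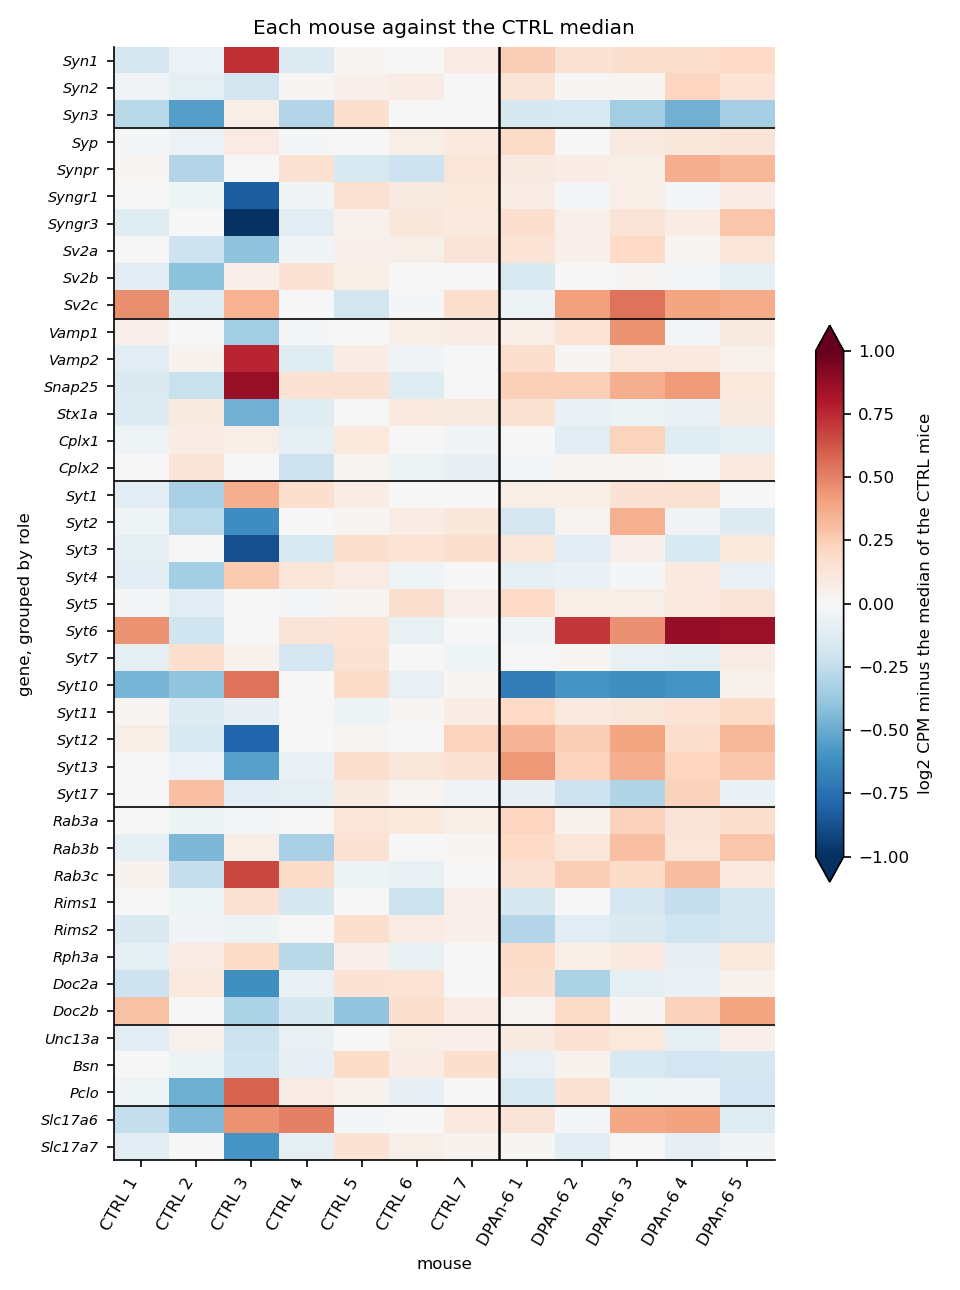
Each gene in each mouse as log2 CPM minus the CTRL median of that gene (color scale from -1 to 1), with genes grouped by role and CTRL left of the line. CTRL replicate 3 shows deep colors in both directions, such as Snap25 (11.85 log2 CPM) and Syngr3 (5.95), and Syt6 is red in DPAn-6 replicates 2 to 5.

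No difference between the ages in the response to DPAn-6 was detected for these genes. The difference between the groups had the same sign at 12 and 14 months in 30 of 41 genes, with 2 mice of each group at 12 months. The interaction of age and treatment passed the test in 0 of 41 genes (edgeR, background 0.00637%) and at an unadjusted p below 0.05 in 0 of 41 (background 4.26%). The smallest interaction p was 0.0709, that of Slc17a6, whose mean difference was 0.47 log2 CPM at 12 months and -0.10 at 14 months. For Snap25 these were 0.47 and 0.03, for Syt6 0.45 and 0.51, and for Syt13 0.22 and 0.39. CTRL replicate 3, which was 14 months old and stood apart for Snap25 (11.85 log2 CPM), entered only the 14-month differences. The differences by age were not computed without it. Within the 14-month mice, 0 of 41 genes passed the test (background 0.0564%) and 6 of 41, Doc2b, Rims2, Syt11, Syt12, Syt13 and Syt6, had an unadjusted p below 0.05 (background 8.96%).

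The wider machinery was read from 6 lists of 76 further genes, of which 71 were tested. Only Ston2 (stonin 2, an adaptor that retrieves synaptotagmin from the plasma membrane) passed the test, where 1.14% of all genes were called as lower. It measured 4.19, 4.31 and 4.75 log2 CPM as the lowest, median and highest of the CTRL mice and 3.74, 4.12, 3.76, 3.85 and 3.81 in DPAn-6, and it fell, with a log2 fold change of -0.57 ± 0.11 (edgeR, adjusted p = 0.0240; exact permutation p = 0.00126). Every DPAn-6 mouse was under every CTRL mouse. At an unadjusted p below 0.05 there were 4 higher and 5 lower, 12.7% of the 71, where 14.5% of all genes tested were so (5.51% higher and 9.02% lower).

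Of the 18 priming and docking genes, 8 were higher and 10 lower, with the smallest p for Unc13c (Munc13-3; log2 fold change -0.43, adjusted p = 0.122) and Erc1 (an ELKS scaffold; -0.19, adjusted p = 0.293). Of the 12 further SNAREs and recycling factors tested, 10 were higher, and the 2 smallest p were those of Vamp4 (0.13, adjusted p = 0.471) and Stx12 (0.11, adjusted p = 0.521). Of the 10 further membrane proteins tested, 9 were higher, led by Slc17a8 (VGLUT3; 0.48, adjusted p = 0.263) and Scamp5 (0.13, adjusted p = 0.486). The 9 further synaptotagmin relatives split into 4 higher and 5 lower, with Sytl5 at -0.43 (adjusted p = 0.283) and Syt16 at 0.15 (adjusted p = 0.357). Of the 14 endocytosis genes 9 were higher, and beside Ston2 the smallest p was that of Sh3gl2 (endophilin A1; 0.15, adjusted p = 0.354). Of the 8 subunits of the proton pump that energizes transmitter loading 7 were higher (median 0.10 on the log2 scale), and Atp6v0d1 and Atp6v1b2 had the smallest p (0.22 and 0.23, adjusted p = 0.267 and 0.30).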

How the data were processed

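The 12 libraries were of poly(A) RNA from cortex. The authors aligned the reads with STAR 2.5.3a to GRCm38 and deposited raw counts per gene; the strand setting of the counting is not given in the sources used here. Of 50563 genes, 50339 matched GENCODE M21 (GRCm38), 30214 had a count and 15688 passed edgeR's filterByExpr. Total counts per library ranged from 15208803 to 26520251. CTRL and DPAn-6 were compared with edgeR 4.0.16 in R 4.3.3 (TMM, quasi-likelihood, no covariate, Benjamini-Hochberg over all genes tested, threshold 0.05), tested on simulated data first. limma 3.58.1 (voom, the tool of the study), DESeq2 1.42.0 and other fits were alternatives. Levels are log2 CPM with 0.5 added to each count and no TMM factor; levels between genes are CPM per kb of merged exons. A single gene was also tested by exact permutation of the group labels on the log2 CPM values. Overlap of the groups was read on the same values. Neither holds the TMM factors that enter the edgeR values. Without TMM the median edgeR log2 fold change over all genes was 0.0234 higher. In the gap test a mouse stood apart where its gap to the nearest mouse, over the group's range, passed 0.568 for 7 mice or 0.71 for 5.

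For some genes the value of each DPAn-6 mouse and the lowest, median and highest CTRL values are given. These were the genes with an adjusted, or else an unadjusted, p below 0.05, at most 14 by smallest p. Snap25, Syn1, Syp, Syt1, Vamp2 and Slc17a7 were added whatever their p. In each further list the genes named were those called and the 2 with the smallest p. The 41 genes, the lists and the marker sets were chosen with earlier results of these data known. Replicate numbers were only names. Marker lists were of excitatory and inhibitory neurons, oligodendrocytes, astrocytes, microglia, choroid plexus, striatum, thalamus and hippocampus. Of the lists not described with the libraries, 1 of 10 excitatory markers, Nrn1, was called, as higher (background 1.55% for either direction). None of the 11 inhibitory, 10 oligodendrocyte, 9 astrocyte, 10 thalamus and 8 hippocampus markers tested was called. Of the excitatory markers 8 were higher and 2 lower (median log2 fold change 0.04). Of the 11 inhibitory markers 10 were higher in DPAn-6 and 1 lower (median log2 fold change 0.19). Their mean lay between 6.05 and 6.22 log2 CPM in CTRL and between 6.29 and 6.45 in DPAn-6. Of the oligodendrocyte markers 8 were higher and 2 lower, and of the astrocyte markers 1 was higher and 8 lower. At an unadjusted p below 0.05, 2 excitatory, 3 inhibitory and 5 oligodendrocyte markers were higher (background 5.51%). Lower at that level were 1 excitatory, 2 astrocyte, 1 thalamus and 1 hippocampus markers (background 9.02%).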

Additional observations from a re-analysis of the deposited data

Results flagged for a closer look

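By the gap test, which flags about 1 in 20 groups by chance, 17 of 124 groups of values looked at held a mouse that stood apart, 14 of them CTRL replicate 3. In log2 CPM, CTRL replicate 3 was the highest CTRL mouse in Syn1 (10.48), Vamp2 (11.11) and Snap25 (11.85) and the lowest in Syngr1 (8.53), Syngr3 (5.95), Vamp1 (7.13), Stx1a (7.86), Syt3 (4.81), Syt12 (4.39), Syt13 (7.41) and Slc17a7 (10.25). It was also the highest for the mean of the excitatory neuron markers (7.88) and for the log2 ratios per length of Syt1 to Syt2 (4.97) and Vamp2 to Vamp1 (5.39). DPAn-6 replicate 5 was the highest DPAn-6 mouse in Syt10 (2.64 log2 CPM). DPAn-6 replicate 1 was the lowest for the mean of the striatum markers (4.05 log2 CPM) and the highest for the log2 ratio of Sv2a to Sv2c (4.84).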

How the results depend on the processing

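Of the 41 genes, 0 passed the test with all mice in edgeR. The count was 3 with DESeq2, 9 with limma-voom and sample weights, 3 with a length and GC trend removed, and 0 to 6 with each mouse left out in turn, where leaving out CTRL replicate 3 gave 6, leaving out DPAn-6 replicate 1 gave 1 and the rest gave 0. The count at an unadjusted p below 0.05, 9 (14.5% of all genes), became 2 with Ttr as a covariate (6.39% of all genes), 16 with the trend removed (19.9%), 15 with sample weights (24.7%), and 7 to 15 with a mouse left out (11.1% to 23.1%). Over all genes, 243 calls became 9 in 14-month mice, 696 with DESeq2, 17 with Ttr as a covariate, 541 with the trend removed, 1267 with sample weights, 150 with the striatum markers as a covariate, and 64 to 953 with a mouse left out. The median log2 fold change of the 41 genes stayed between 0.03 and 0.09. Of 390 log2 fold changes of 15 genes under 26 alternatives, 19 changed sign, and none of those was of the 9 genes with an unadjusted p below 0.05. Snap25 was -0.0543 and Syt1 -0.0568 in 14-month mice, which include CTRL replicate 3. Syn1 was -0.0103 with the trend removed. Syt1 was -0.021 and Vamp2 0.0837 with Ttr. Vamp2 was 0.082 and Slc17a7 -0.066 with sample weights, and 0.0345 and -0.0018 with the striatum markers. Slc17a7 was -0.0007 with Gm42418 left out of the totals and -0.0018 with age. With a mouse left out, Slc17a7 ran from -0.066 to 0.0435, Syt1 from -0.0296 to 0.0954 and Vamp2 from -0.1001 to 0.0927. The causes were not tested. The fits without Gm42418 and with the striatum markers were added after the data were seen.

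With the replicate number as a block, 0 of 41 genes passed, 8 had an unadjusted p below 0.05 (12.9% of all genes), and 79 of all genes were called. Same-numbered mice did not deviate together (correlations 0.091, 0.016, -0.126, 0.219 and -0.066), so the numbers were not taken as pairs.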
